A study of Mus musculus with 6 samples.

Results

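The 9 interferon-stimulated genes described here are Rsad2, Bst2, Ifit1, Ifit3, Isg15 and Ifitm3, which encode antiviral proteins, and Stat2, Irf7 and Irf9, which encode regulators that switch such genes on. They were taken as every bead-array probe whose annotated gene symbol is 1 of these 9, which gave 11 probes of 45281 on the array and 9 genes of 19057 named ones. The arrays measured total RNA of primary calvaria, the bone of the skull roof, from FVB/N mice at postnatal day 3. The 3 wild-type samples (WT) were the control group. The other 3 samples (TG) came from mice with a gain of function, labelled as overexpression, of the microRNA miR34c, a small RNA that represses messenger RNAs with matching sites. The labels name no promoter or cell type that drives miR34c, and they do not say whether a sample was 1 pup or a pool. The arrays are called biological replicates, and nothing else says that they came from separate animals, so p-values measure the spread between these samples. The array has no named probe for miR34c, so its level was not checked here.

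Type I interferons are secreted signals that warn cells of viral nucleic acid. They bind the receptor made of Ifnar1 and Ifnar2, whose kinases Jak1 and Tyk2 phosphorylate Stat2, and Stat2 joins Irf9 in a complex that binds the interferon-stimulated response element in the promoters of target genes. Irf7 is itself a target and in turn drives more interferon, and in bone interferon signalling is known to restrain osteoclast formation.

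The promoter stretches that hold the response-element core are shown because most of the members have this core and Stat2 and Irf9 are known to act through it. The core searched was GAAA, any 2 bases and GAAA again, on either strand, in windows of 250 bases before to 50 bases after each start site in RefSeq (GRCm38.p6). It was found for 7 of the 9 member genes and for 3.99% of the 27025 genes with such a window. Capitals mark the core, which reads as its reverse complement where it lies on the opposite strand, and each stretch is given 5′ to 3′ on the strand of its gene.
Rsad2: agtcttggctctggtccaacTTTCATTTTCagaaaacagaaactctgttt
Bst2: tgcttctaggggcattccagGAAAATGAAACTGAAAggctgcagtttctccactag
Stat2: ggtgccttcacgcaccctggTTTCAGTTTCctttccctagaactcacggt
Ifit1: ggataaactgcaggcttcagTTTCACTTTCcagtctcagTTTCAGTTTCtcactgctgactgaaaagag
Ifit3: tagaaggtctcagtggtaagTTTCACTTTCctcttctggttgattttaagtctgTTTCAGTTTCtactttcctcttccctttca
Isg15: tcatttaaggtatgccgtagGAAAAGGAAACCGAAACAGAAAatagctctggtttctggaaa
These lie on GRCm38.p6 at chr12:26456543-26456592 (minus strand) for Rsad2, chr8:71537567-71537622 (minus) for Bst2 and chr10:128270256-128270305 (plus) for Stat2. The Ifit1 stretch is at chr19:34640765-34640833 (plus), that of Ifit3 at chr19:34583353-34583436 (plus) and that of Isg15 at chr4:156200855-156200916 (minus). In Rsad2 the core begins 120 bases before the start site and in Stat2 222 bases before it. Ifit1 and Ifit3 hold 2 separate cores each, Bst2 2 overlapping ones and Isg15 3 overlapping ones. Ifitm3 has its matches after the start site, from base 3 to base 29, and no match lies in the windows of Irf7 and Irf9. The core of the gamma-activated site, TTC, any 3 bases and GAA, was found for 2 members, Bst2 and Ifitm3, against 9.55% of genes. In Bst2 it overlaps the first response-element core and in Ifitm3 the last. A match describes letters in a window and does not show binding.

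The 6 arrays had median intensities of 125.1 to 132.6 and 19680 to 21412 probes detected at a detection p under 0.05. The 10 bone marker genes with a probe, among them Col1a1, Ibsp, Sp7 and Bglap, were detected on all 6 arrays. Of these, 2 were lower on every TG array than on any WT array, as were 3.93% of all tested probes. All 10 tested cartilage marker genes had higher means in TG, as had 5548 of 11204 tested genes. Their median log2 fold change, TG minus WT, was 0.33, and 0 were free of overlap. The X-inactivation transcript Xist had 10.82 and 11.64 on TG replicates 2 and 3 by the probe with the highest mean over the 6 arrays (normalised log2 scale), which was not detected on the other arrays (4.47 to 4.62). A dimmer Xist probe had 9.17 and 9.34 on these TG arrays and 4.49 to 5.12 on the others, of which WT replicates 2 and 3 were just past the detection threshold. TG replicates 2 and 3 are thus the arrays with a female pattern, and no WT array has it. Values from the other 4 arrays, called the arrays without Xist signal, are given beside the tested members. They are given beside other pathway genes where they differ by over 1.5 times. TG replicate 1 is the only TG array among these 4. Such values therefore have no spread within TG and cannot separate sex from other traits of that array. In the control block of the deposited table the arrays bear other replicate numbers and another postnatal day than in the sample labels. The sample labels were used here, and the discrepancy is unresolved.

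Most of these interferon-stimulated transcripts gave weak signals in newborn calvaria. Of the 11 probes, 7 were detected on all 6 arrays, the Isg15 probe on 5, and 3 on no array. The undetected probes were those of Irf7 and Ifit1 and the dimmer of the 2 Ifit3 probes. In the table of deposited intensities, the negative-control beads averaged 117.2 to 123.0, and their 95th percentile was 129.9 to 135.8. Ifitm3, which encodes a membrane protein that blocks viral entry, read 3451 to 4670 and stands apart from the control beads on every array. Every other detected member probe had an intensity of at most 310.2 on any array, so its value depends on how the background is removed.

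**Figure D1:**
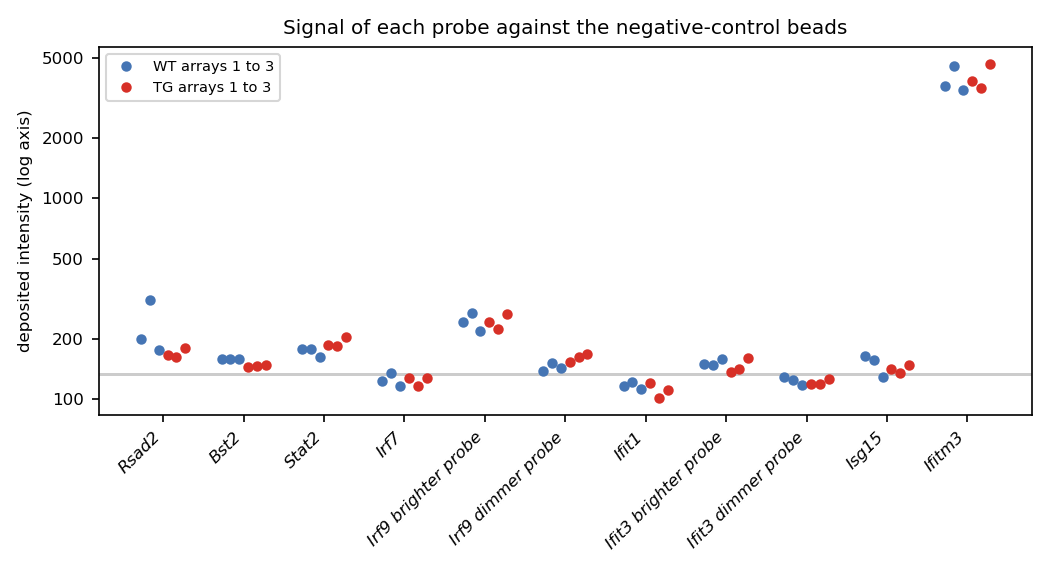
Deposited intensity (log axis) of each of the 11 probes on the 3 WT and 3 TG arrays; the grey band is the range over arrays of the 95th percentile of the negative-control beads, 129.9 to 135.8. Ifitm3 lies at 3451 to 4670, and the points of Irf7, Ifit1 and the dimmer Ifit3 probe lie in or below the band.

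No member passed the test of TG against WT, and no direction was common to the members. Rsad2 and Bst2 had lower values on every TG array than on any WT array, while Stat2 and the dimmer Irf9 probe had higher values on every TG array. With limma, 0 of 20632 tested probes had an adjusted p under 0.05 (0% of them), and the adjusted p of each of the 8 tested member probes was 0.9996. The groups did not overlap for 4 of these 8, against 7.55% of all tested probes, with 2 higher in TG (3.62% of all) and 2 lower (3.93%). At an unadjusted limma p under 0.05 were the same 4 probes, against 3.44% of all, 2 higher (1.74%) and 2 lower (1.70%). The members were listed with earlier results of these arrays known, so these counts describe them and give no independent evidence of a response. By their brightest tested probe, 3 of the 7 tested genes had positive and 4 negative log2 fold changes, with a median of -0.22, beside a median of -0.001 over 11204 tested genes.

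**Figure D2:**
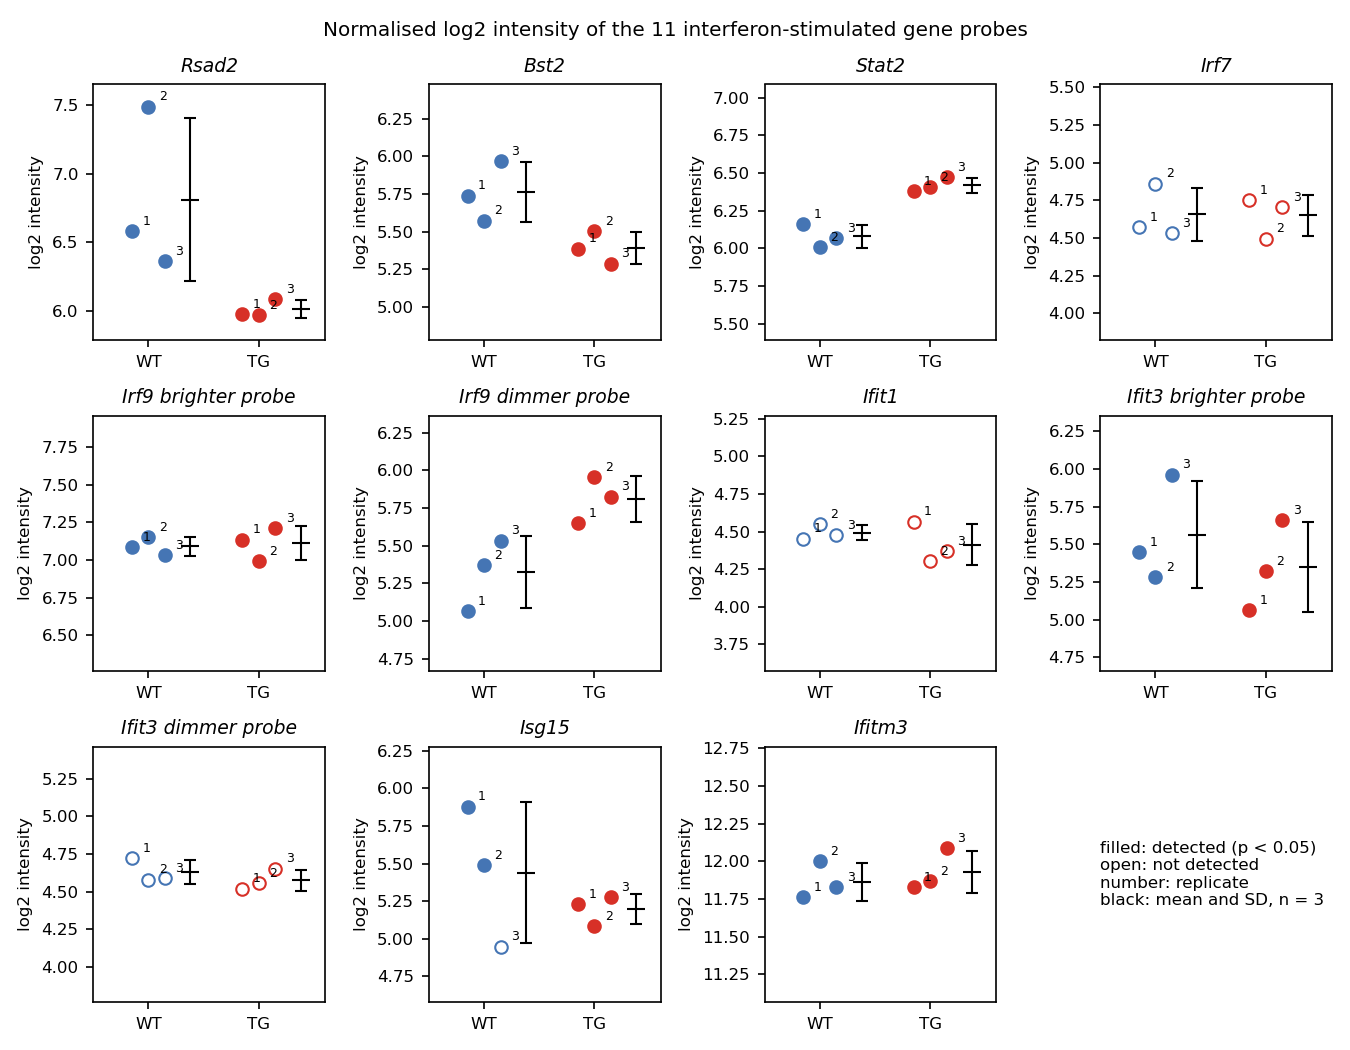
Normalised log2 intensity of the 11 probes on each array, WT in blue and TG in red, with the mean and SD of each group (n = 3) in black; open symbols were not detected. The groups are apart for Rsad2, Bst2, Stat2 and the dimmer Irf9 probe, and the single high WT point of Rsad2 is WT replicate 2 at 7.49.

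Among the effectors, Rsad2 encodes viperin, an enzyme that makes a nucleotide analogue which ends viral RNA chains. Its probe (ILMN_1225204) had normalised log2 values of 6.58, 7.49 and 6.36 on WT replicates 1, 2 and 3 and of 5.98, 5.97 and 6.08 on TG replicates 1, 2 and 3. All TG arrays lay close together below all WT arrays, and WT replicate 2 stood well above the other WT arrays. Group means were 6.81 ± 0.60 in WT and 6.01 ± 0.06 in TG (SD, n = 3), 1.74-fold apart. This is -0.80 ± 0.27 (SE) as TG minus WT on the log2 scale, with a 95% interval of -1.42 to -0.19 (limma, unadjusted p = 0.0169, adjusted p = 0.9996). Without WT replicate 2 the log2 fold change was -0.46. With the arrays without Xist signal, where TG replicate 1 alone is the TG group, it was -0.83. Without background correction it was -0.38, and on the log2 values that the authors deposited -0.28. Its spread within groups, a pooled SD of 0.42 against a median of 0.18 over tested probes, was larger than that of 94.6% of them.

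WT replicate 2 also had the highest mean of the skeletal muscle markers (1.10 above their mean over all arrays, on the log2 scale) and of the erythroid markers (0.67). The mean of the muscle markers was next highest on TG replicate 2 (0.71) and lowest on TG replicate 1 (-1.53). On these TG arrays Rsad2 had 5.97 and 5.98. The summed signal of the 9 tested muscle markers of 10 was 52684 to 131633 in WT, the highest on replicate 2, and 30526 to 95781 in TG, and Myh4 was detected on no array. For the 4 tested erythroid markers of 7 it was 15912 to 37049 in WT and 18847 to 25095 in TG, and Epb42 was detected on no array. The part of these tissues in the Rsad2 values was not tested. In bulk RNA, fewer cells of a type and less RNA per cell cannot be told apart. The named genes whose pattern over the 6 arrays was nearest to that of Rsad2, by the root mean square difference of centred log2 values, were Nefm (0.169), which encodes a neurofilament subunit, Slc25a34 (0.178), a mitochondrial carrier gene, and Nmrk2 (0.216), a nicotinamide riboside kinase gene. The median difference over 11197 genes was 0.558, and Rsad2 itself had a root mean square of 0.530 about its own mean. The 3 genes were picked as the nearest, so their distance from that median is no evidence of a link with Rsad2. Each of these 3 probes was dim, was detected on 2 WT arrays and 1 TG array, and had its highest value on WT replicate 2. The other probes of these genes were detected on too few arrays to be tested. WT replicate 2 was highest on them too, except on the Slc25a34 probe ILMN_2581136, with 4.45 there and 4.78 on TG replicate 3.

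Bst2 encodes tetherin, a membrane protein that holds budding virus particles on the cell surface. The probe (ILMN_1224110) had log2 values of 5.74, 5.57 and 5.97 in WT and 5.39, 5.50 and 5.29 in TG, in the order of the replicates. The lowest WT array, replicate 2, and the highest TG array, also replicate 2, were close neighbours without crossing. The log2 fold change was -0.37 ± 0.14 (SE; 95% interval -0.69 to -0.05; limma, unadjusted p = 0.0294, adjusted p = 0.9996), from 5.76 ± 0.20 in WT and 5.39 ± 0.11 in TG (SD, n = 3). It was -0.37 with the arrays without Xist signal, -0.12 without background correction and -0.08 on the authors' values. In intensity the whole difference amounted to 145.2 to 148.0 in TG against 158.1 to 159.3 in WT.

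Bst2 is also made by plasmacytoid dendritic cells, macrophages and B cells. Of the lymphoid and plasmacytoid dendritic cell markers, 6 of 12 were tested, with a summed signal of 5924 to 8668 in WT and 6205 to 7546 in TG, while Cd3e, Cd3d, Cd4, Cd8a and Ccr9 were detected on no array. The 11 tested macrophage markers of 12 summed to 3004 to 3950 in WT and 2563 to 4024 in TG, and Itgam was detected on no array. Both ranges of summed signal overlap between the groups. By mean log2 value relative to all arrays, the lymphoid and plasmacytoid dendritic cell markers did not overlap. WT replicates 1 to 3 had 0.018, 0.013 and 0.26, against -0.24, -0.036 and -0.013 for TG replicates 1 to 3. Of these markers 4 had negative and 2 positive log2 fold changes (median -0.20), and 0 passed. The macrophage means overlapped, at -0.13 to 0.13 in WT and -0.25 to 0.20 in TG. Neutrophil and myeloid progenitor markers, 11 tested of 13, summed to 15336 to 18665 in WT and 9812 to 17334 in TG, with the lowest sum on TG replicate 1 and Mmp8 detected on no array. All 11 had negative log2 fold changes, with a median of -0.50, and by limma 0 passed the test and 1 had an unadjusted p under 0.05. Their mean relative to all arrays was -1.05 on TG replicate 1, 0.21 and 0.09 on TG replicates 2 and 3, and 0.51, -0.03 and 0.27 on the WT arrays. The part of these cells in the values of Bst2 was not tested.

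Isg15 is a ubiquitin-like protein that is attached to other proteins after interferon. Its probe (ILMN_1256257) had log2 values of 5.88, 5.49 and 4.95 in WT and 5.23, 5.08 and 5.28 in TG. The TG arrays lay between the highest and lowest WT arrays, and WT replicate 3 was the array where the probe was not detected. The log2 fold change of -0.24 ± 0.22 (SE; 95% interval -0.75 to 0.27) was -0.02 without WT replicate 1, -0.49 without WT replicate 3 and -0.08 without background correction. It was -0.21 with the arrays without Xist signal.

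Ifit1 and Ifit3 encode antiviral proteins, of which that of Ifit1 binds foreign RNA ends. The Ifit1 probe (ILMN_2774340) read 116.8, 122.5 and 113.1 in WT and 121.1, 101.4 and 110.7 in TG, below the mean of the negative controls on every array but TG replicate 1, where it exceeded it by 0.473. No fold is given for it, since neither group was above background. The brighter Ifit3 probe (ILMN_2944666) had log2 values of 5.45, 5.28 and 5.96 in WT and 5.06, 5.32 and 5.66 in TG, with wide overlap. Its log2 fold change was -0.22 ± 0.22 (SE; 95% interval -0.72 to 0.28), -0.02 without WT replicate 3, -0.07 without TG replicate 1, -0.07 without background correction and -0.50 with the arrays without Xist signal. The dimmer Ifit3 probe (ILMN_1230458) read 118.4 to 128.5 in WT and 118.7 to 126.2 in TG and was not detected. Ifit3 has a near-identical neighbour, Ifit3b, which had no named probe, so the probes may read both.

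Ifitm3, the brightly measured effector, gave no separation of the groups. Its probe (ILMN_2658501) had log2 values of 11.76, 12.00 and 11.83 in WT and 11.83, 11.87 and 12.09 in TG. The groups overlapped over most of their range, with means of 11.86 ± 0.12 and 11.93 ± 0.14 (SD, n = 3). The log2 fold change was 0.06 ± 0.13 (SE), and its 95% interval of -0.23 to 0.36 leaves room for differences of either sign; it turned to -0.04 with the arrays without Xist signal. Here the background step mattered little, with 0.06 without background correction and 0.06 on the authors' values.

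Stat2, a transcription factor of type I interferon signalling, had the smallest spread within groups of the 8 tested probes. The probe (ILMN_2657822) had log2 values of 6.16, 6.01 and 6.07 in WT and 6.38, 6.41 and 6.47 in TG. All TG arrays were above all WT arrays, and the gap between the groups exceeded the range within either. Group means of 6.08 ± 0.08 and 6.42 ± 0.05 (SD, n = 3) differed by 0.34 ± 0.11 (SE; 95% interval 0.09 to 0.60), or 1.27-fold (limma, unadjusted p = 0.0153, adjusted p = 0.9996). It was 0.31 to 0.38 on leaving out 1 array, 0.30 with the arrays without Xist signal, 0.14 without background correction and 0.10 on the authors' values. Only 3.67% of tested probes had a smaller spread within groups. The unadjusted limma p moved with the settings, to 0.0604 with trended and robust variance and to 0.0031 without a filter on dim probes.

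The Irf9 probes disagreed. On the dimmer probe (ILMN_2636339) the log2 values were 5.06, 5.37 and 5.53 in WT and 5.65, 5.96 and 5.83 in TG. The TG arrays were all higher, TG replicate 1 narrowly so. The log2 fold change was 0.49 ± 0.16 (SE; 95% interval 0.13 to 0.85; limma, unadjusted p = 0.0140, adjusted p = 0.9996), which was 0.33 with the arrays without Xist signal, 0.24 after adjusting for Y-linked signal, 0.16 without background correction and 0.10 on the authors' values. The brighter probe (ILMN_1233461) had 7.09, 7.15 and 7.03 in WT and 7.14, 6.99 and 7.21 in TG. Its groups overlapped throughout. Its log2 fold change was 0.02 ± 0.12 (SE; 95% interval -0.25 to 0.29), and 0.04 with the arrays without Xist signal. The files do not say which transcripts the probes read, so the disagreement is left as measured and no direction is given for Irf9. Irf7 (ILMN_1227573), the regulator that interferon itself induces, read 122.9, 134.9 and 116.0 in WT and 128.0, 115.8 and 128.3 in TG and was not detected on any array.

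**Figure D3:**
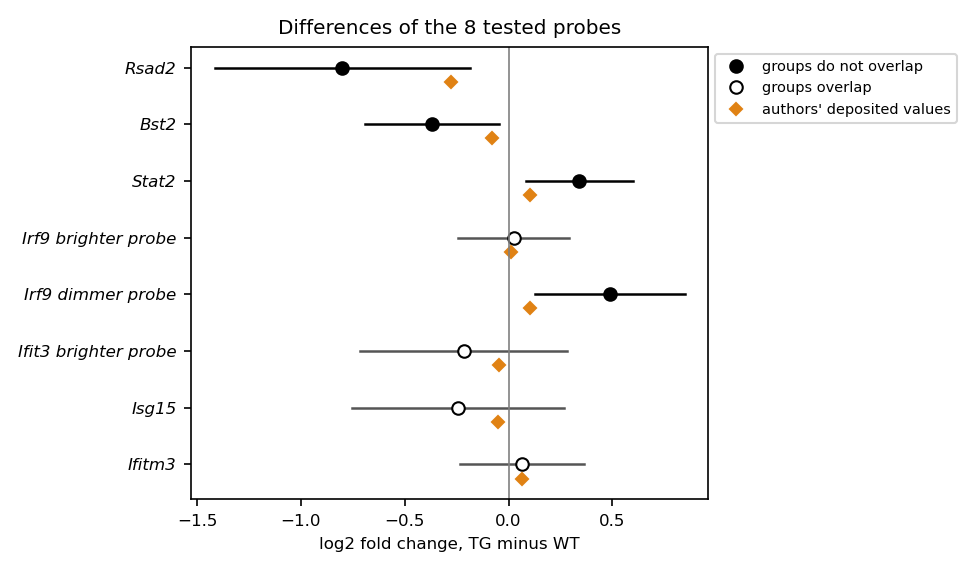
Log2 fold change, TG minus WT, of the 8 tested probes with its 95% interval from limma (circles), and the difference of group means in the authors' deposited log2 values (orange diamonds). Rsad2 (-0.80) and Bst2 (-0.37) lie left of 0, Stat2 (0.34) and the dimmer Irf9 probe (0.49) right of it, and the diamonds lie nearer to 0 than the circles for every probe but Ifitm3 (0.06 in both).

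**Figure D4:**
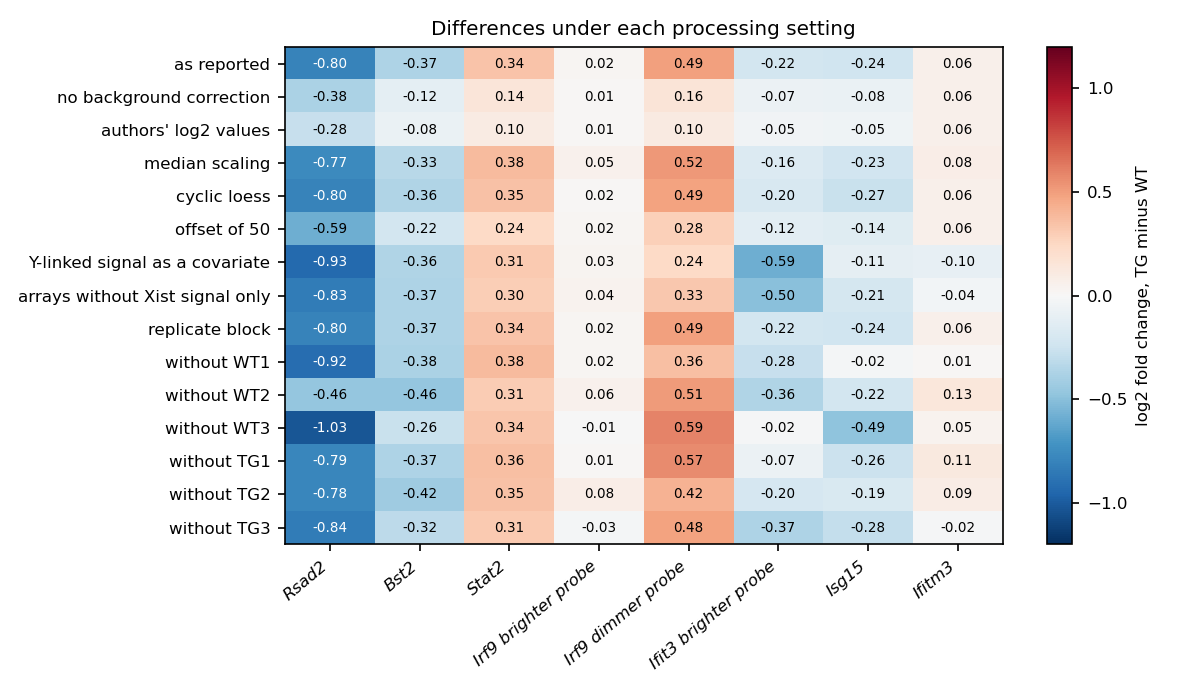
Log2 fold change, TG minus WT, of the 8 tested probes under the reported fit and most of the alternatives, in colour and digits. The changes of filter, variance model, array weights and probe averaging are not drawn. Rsad2 ranges from -1.03 to -0.28 and Stat2 from 0.10 to 0.38, while Ifitm3 and the brighter Irf9 probe change sign.

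The rest of the interferon pathway showed no call in either direction. Of the interferons themselves, 13 of the 18 genes with a probe, Ifnb1 and Ifng among them, were detected on no array. In the same fit 3 were tested, Ifna1 at 0.45 ± 0.23 (log2 fold change ± SE) on a probe detected on 1 WT and 2 TG arrays, Ifna6 at -0.20 ± 0.15 and Ifnab at -0.01 ± 0.11. The alpha interferon genes are close copies whose probes may share signal. Ifna1 turned to -0.07 and Ifna6 to 0.04 with the arrays without Xist signal, and Ifnab had -0.020.

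Of the 7 tested receptor and kinase genes 0 passed, with 5 positive and 2 negative values and a median of 0.05. Ifnar2, a receptor subunit, had 6.64, 6.25 and 6.61 in WT and 6.72, 6.86 and 6.91 in TG. Its groups did not overlap, and the log2 fold change was 0.32 ± 0.14, but its other probes had 0.20 and -0.32. Jak2 had 0.28 ± 0.16, Tyk2 -0.11 ± 0.11 with its other probes at 0.12 and -0.43, and Jak1 0.05 ± 0.12. With the arrays without Xist signal Ifnar2 had 0.21, Jak2 0.51 and Jak1 0.099, and on leaving out 1 array Ifnar2 ranged from 0.20 to 0.39 and Jak2 from 0.15 to 0.38. Ifnar1, the other receptor subunit, was detected on no array.

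Besides the members, 7 STAT and IRF genes were tested, and 0 passed or were free of overlap. By their brightest tested probes all 7 had negative log2 fold changes, from -0.27 to -0.07 (median -0.09). Of all 11204 tested genes, 5656 had negative values. Irf1, which activates interferon-responsive genes, had -0.27 ± 0.15, while its other 3 probes had -0.09 to -0.003. Irf8, a factor of myeloid cells, had -0.13 ± 0.19. Stat3 had -0.11 ± 0.17, with its other probes at -0.10 and 0.13, and Irf2, an antagonist of Irf1, had -0.09 ± 0.15. Each of these 4 differences was smaller than the range of its own WT replicates. With the arrays without Xist signal Irf8 had -0.47, Stat3 -0.17 and Irf2 -0.051, and Irf1 ranged from -0.37 to -0.17 on leaving out 1 array.

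The 12 tested sensors of foreign nucleic acid and their adaptors had 7 positive and 5 negative values with a median of 0.02, and 0 passed. Mavs, the mitochondrial adaptor of RNA sensors, had 7.41, 7.28 and 7.16 in WT and 7.52, 7.59 and 7.43 in TG. The groups came close without overlap, at a log2 fold change of 0.23 ± 0.12. Tlr7 had 0.23 ± 0.15, Zbp1 0.23 ± 0.16 and Ddx58, which encodes the RNA sensor RIG-I, 0.16 ± 0.13. Without TG replicate 1, Tlr7 had 0.095 and Zbp1 0.098, and with the arrays without Xist signal, where that replicate is the TG group, each had 0.50. Ddx58 ranged from 0.077 to 0.23 on leaving out 1 array. The RNA sensor genes Ifih1 and Tlr3 were detected on no array.

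Of 8 negative regulators, 2 had positive and 6 negative values, with a median of -0.13, and 0 passed. Ptpn6, a phosphatase of blood cells, had -0.39 ± 0.18 on its brighter probe and 0.003 on the other. Socs1, an inhibitor of the Jak kinases, had 5.17, 5.31 and 5.13 in WT and 5.11, 4.83 and 4.98 in TG, without overlap, and was detected on 2 TG arrays; its log2 fold change was -0.23 ± 0.12. Socs3 had -0.14 ± 0.18 and Ptpn2 -0.13 ± 0.19. With the arrays without Xist signal Ptpn6 had -0.59, Socs1 -0.098, Socs3 -0.24 and Ptpn2 -0.35. On leaving out 1 array Ptpn6 ranged from -0.54 to -0.22, Socs3 from -0.30 to -0.025 and Ptpn2 from -0.29 to -0.020.

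Among 39 other interferon-stimulated genes, 21 had positive and 18 negative values with a median of 0.02, and 0 passed. Ifi27l2a, an interferon-alpha-inducible gene, had log2 values of 7.85, 7.82 and 7.73 in WT and 8.06, 8.25 and 8.41 in TG. Every TG array was above every WT array, at a log2 fold change of 0.44 ± 0.13 (SE; limma, unadjusted p = 0.00955, adjusted p = 0.9996), which ranged from 0.22 to 0.53 over 19 alternatives. Going the other way, Isg20, an exonuclease gene, had -0.49 ± 0.20 on a probe detected on 1 TG array. Tap1, a peptide transporter gene of antigen presentation, had -0.28 ± 0.15 without overlap and was detected on 2 TG arrays, and Ube2l6, the conjugating enzyme gene of Isg15, had -0.35 ± 0.20. With the arrays without Xist signal Ifi27l2a had 0.26, Isg20 -0.20, Tap1 -0.54 and Ube2l6 -0.21. Tap1 had -0.15 without TG replicate 1, Isg20 -0.32 and Ube2l6 -0.16 without WT replicate 2, and Ube2l6 -0.54 without WT replicate 1. Mx1, Oas1a and Cxcl10, which respond strongly to interferon in other settings, were among 9 genes detected on no array. Of the Ifitm family, Ifitm1 had -0.02 ± 0.15, Ifitm2 0.02 ± 0.14 and Ifitm5, the member known for its expression in osteoblasts, 0.14 ± 0.19.

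**Figure D5:**
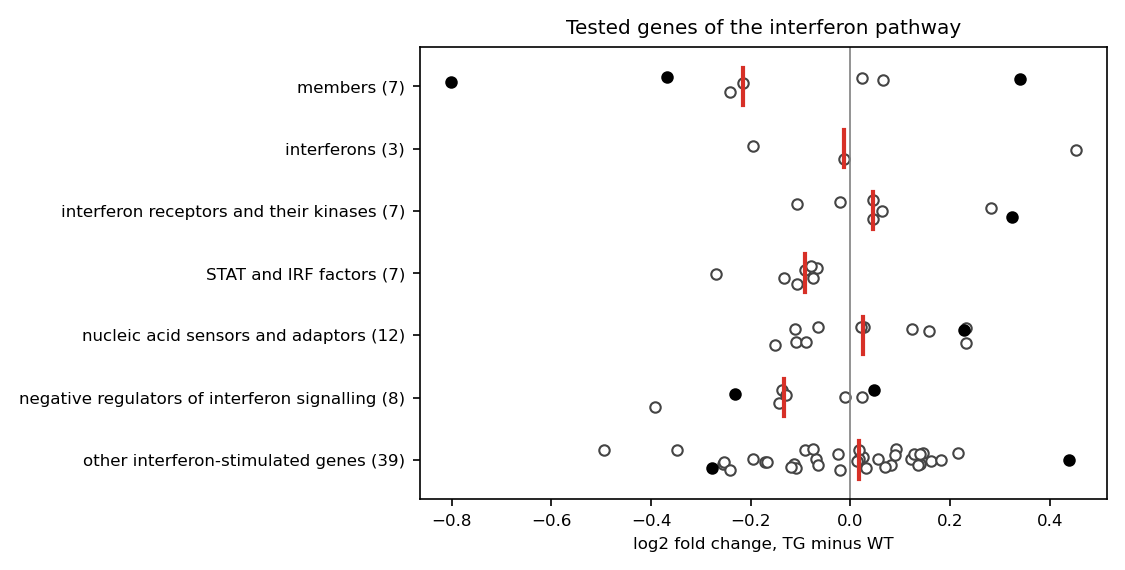
Log2 fold change, TG minus WT, of each tested gene by its brightest tested probe, for the members and 6 lists of other interferon pathway genes (number tested in parentheses); filled points have groups that do not overlap and red lines are medians. The member median is -0.22 and those of the other lists lie between -0.13 and 0.05.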

How the data were processed

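Per the file headers, the authors deposited intensities on a linear scale, one column per array, each beside a detection p-value, without normalisation. The authors also deposited normalised log2 values. For these the submitters' processing notes name lumi, and their background step and normalisation are unknown. Of 974 control rows the last 936 were taken as negative controls. Detection p-values computed from those rows were within 0.00695 of the deposited ones. Background was removed by the normal-exponential method on these controls (limma 3.58.1, R 4.3.3) with an offset of 16, followed by quantile normalisation of log2 values. A probe was tested where its detection p was under 0.05 on at least 3 of 6 arrays, which held for 20632 probes. The test was limma's moderated linear model, two-sided, with Benjamini-Hochberg adjustment over all tested probes; no set test was run. The fit was tested on simulated data. A gene was represented by its brightest tested probe. The number of arrays, 3 per group, limits the precision.

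Gene symbols came from the platform annotation, and all 11 member probes had an Entrez identifier in RefSeq. Named genes were all 9 members, up to 4 genes per pathway list with the smallest p, and the 3 genes nearest to each member spanning over 1 log2 unit. Marker and sex-linked genes were named as checks, and the other pathway genes after their values were seen. The members and lists were chosen with earlier results of these data known. Alternatives left out the background correction, used the authors' values, scaled by medians or by cyclic loess, dropped or tightened the filter, set the offset to 50, added a replicate block, array weights, or trended and robust variance, averaged a gene's probes, adjusted for Y-linked signal (Kdm5d and Uty), kept only arrays without Xist signal, or left out each array. Counts of member probes at an unadjusted p under 0.05 or without overlap were added to them after seeing the data.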

Additional observations from a re-analysis of the deposited data

How the results depend on the processing

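Across 19 alternatives the signs of Rsad2, Bst2, Stat2 and Ifit3 held, as did that of Isg15 in the 18 where it was tested. No member probe passed under any of them. All probes past the threshold numbered 0 to 2 on leaving out 1 array, the 2 being Xist and Kdm5d without TG replicate 1, and 0 under the others. The median of the member genes, -0.22, was -0.069 without background correction, -0.046 on the authors' values, -0.079 without a filter, -0.096 with probes detected on all 6 arrays, -0.11 with the Y-linked covariate and -0.28 to -0.017 on leaving out 1 array. The 4 member probes at an unadjusted p under 0.05 became 2 without background correction, 2 on the authors' values, 2 with trended and robust variance, 0 with the Y-linked covariate, 0 with the arrays without Xist signal, where TG is 1 array assumed to vary like WT, and 2 to 4 on leaving out 1 array. Member probes without overlap numbered 4 or 5, but smaller groups, as on leaving out 1 array or with 1 TG array, are free of overlap more often. The share over all probes was taken for the reported fit only, so these counts do not show that the separation is stable. All probes at an unadjusted p under 0.05, 710 as reported, were 1780 without a filter, 1162 with the Y-linked covariate and 303 genes with the mean of a gene's probes. Signs turned for Ifnab with median scaling (0.025), for Ifitm3 (-0.098), Ifna1 (-0.18) and Ifna6 (0.13) with the Y-linked covariate, and for Ifitm3 (-0.036), Ifna1 (-0.067) and Ifna6 (0.036) with the arrays without Xist signal. Leaving out 1 array gave ranges across 0 for Ifnab (-0.052 to 0.029), Jak1 (-0.032 to 0.11), Irf2 (-0.17 to 0.0093), Stat3 (-0.24 to 0.0092), Irf8 (-0.26 to 0.036), Irf9 by its brighter probe (-0.026 to 0.084) and Ifitm3 (-0.015 to 0.13). The cause of these moves was not tested.

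Same-numbered arrays of the groups deviated together with r of 0.26, 0.15 and -0.17, and not every array correlated best with its own number. With 3 arrays per group, which also differ in sex pattern and marker signal, these values cannot show whether the numbers pair the arrays. With the replicate block 0 probes passed, 789 had an unadjusted p under 0.05, 3 member probes did, and the median of the member genes was -0.22. Signal over background limits the values: apart from Ifitm3, the member probes read at most 310.2, against negative-control means of 117.2 to 123.0. The brighter Irf9 probe exceeded the control mean of its array by 100.3 to 145.3 and Rsad2 by 43.8 to 187.2.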
